A study of Arabidopsis thaliana with 12 samples.

Results

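Cytochrome P450 genes were followed in roots of Arabidopsis at 23 °C and after 24 h at 4 °C. The rule for choosing genes used only names, but was set with earlier results of these data known. It took every gene whose symbol in the probe table of the ATH1 array starts with CYP, a number and a letter. Cyclophilins are thereby left out. This gave 23 genes out of 13350 gene symbols to which the probe table gives a probe set of their own. All 23 genes had 1 probe set each, and 19 of them belonged to 1 subfamily, CYP71B. The other 4 were CYP51G2, CYP78A9, CYP79A2 and CYP84A4, each the single named gene of its family, so that families could be compared only as CYP71B against these 4 genes. The TAIR10.1 gene table holds 236 P450 genes with such a symbol, and those without a single-gene entry in the probe table were not analysed here.

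Wild-type Col-0 plants were set beside ozs3, short for overly zinc sensitive 3, a mutant in the Col-0 background whose affected gene the labels do not name. All were 4 weeks old and raised hydroponically, in days of 8 h light and nights of 16 h. They stayed at 23 °C or spent the last 24 h at 4 °C, and roots were harvested. Each of the 4 groups (Col-0 at 23 °C, Col-0 at 4 °C, ozs3 at 23 °C and ozs3 at 4 °C) held 3 biological replicates with 1 array each, 12 arrays in all. The labels do not say how many plants went into a replicate.

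Cytochrome P450 enzymes are heme proteins, in plants mostly anchored in the endoplasmic reticulum, that insert an oxygen atom into small molecules with electrons passed on from NADPH by a reductase. Plants have very large P450 families, which serve hormone synthesis and breakdown, wall and wax polymers, and defence compounds such as glucosinolates and camalexin. The CYP71 family is among the largest and lies in the genome largely as tandem copies, and for many CYP71B enzymes no substrate is firmly established.

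The values are log2 signals, so that a difference of 1 is a 2-fold change. Levels are given per array or as mean ± SD over 3 arrays, and differences as log2 values ± SE from a limma model of all 12 arrays. A gene was called when its p-value, adjusted by Benjamini-Hochberg over all 22746 probe sets tested, was under 0.05. Signals of different probe sets cannot be ranked against each other, since probes differ in how well they bind. A mean at or below 5 over all arrays was treated as dim, close to the range where a signal carries little information. In whole roots, fewer cells of a type and less RNA per cell cannot be told apart.

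Array medians lay between 6.99 and 7.20 and followed the groups. They were 7.12 to 7.20 on the arrays of both genotypes at 23 °C, 7.07 to 7.12 in Col-0 at 4 °C and 6.99 to 7.06 in ozs3 at 4 °C. The correlation r of 2 arrays of a group, over all probe sets, was 0.994 to 0.997. The lists of endodermis and root tip markers had no named gene and the stele list had 1, which was not called in the cold. Some markers of 2 tissues were called lower in the cold. Of the 6 green tissue genes 4 fell in Col-0 and 3 in ozs3, and of the 3 root hair genes 2 fell in each. Of all probe sets, 23.5% were called lower in Col-0 and 26.2% in ozs3. The remaining root hair gene, EXPA7, was not called (−0.10 ± 0.18 in Col-0 and 0.43 ± 0.18 in ozs3). The fall of XTH26 in Col-0 lost its call without Col-0 replicate 1 (adjusted p = 0.0609) or 3 (0.0665) at 23 °C or replicate 2 at 4 °C (0.110). The 6 named green tissue genes averaged between 6.26 and 6.91 on the arrays of both genotypes at 23 °C and between 5.56 and 5.80 at 4 °C. The 3 root hair genes averaged between 8.58 and 9.17 at 23 °C and between 7.79 and 8.62 at 4 °C. PRK and SBPASE, which encode enzymes of photosynthetic carbon fixation, had dim means. The part of these tissues in the P450 results below was not tested.

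Of the 23 P450 genes, 12 were dim, 52.2% against 28.3% of all probe sets. All 12 dim genes except CYP79A2 were CYP71B genes, so that 8 of 19 CYP71B genes and 3 of the 4 others had a mean above 5. In 11 of the dim genes nothing was called in any comparison. Their signals ran from 3.38 to 4.89 over all arrays, with group SDs up to 0.36. Their differences between 2 groups lay between −0.21 and 0.23, and all 95% intervals lay between −0.42 and 0.46. These 11 were CYP71B5, CYP71B16, CYP71B21, CYP71B25, CYP71B27, CYP71B30P, CYP71B31, CYP71B35, CYP71B36, CYP71B38 and CYP79A2. CYP71B31 is an oxidase of the floral monoterpene alcohol linalool, and CYP79A2 makes the aldoxime of phenylalanine on the way to benzylglucosinolate. CYP71B27 is annotated as a transcribed pseudogene, and the P in CYP71B30P marks a gene named as a pseudogene, although RefSeq lists it as protein coding.

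The first comparison asked how the cold changed P450 transcripts in wild-type roots. In Col-0, 7 of the 23 genes fell and 3 rose. Of all probe sets, 23.5% were called lower and 20.4% higher, 43.9% in all, and the 10 P450 genes called make 43.5%, close to that background. Their median difference was −0.04, against −0.00 for all probe sets. Among the 11 genes above the dim level 9 were called, 6 lower and 3 higher, beside 58% of all probe sets above that level. The 8 called CYP71B genes were 6 that fell and 2 that rose, and of the other 4 genes 1 rose and 1 fell. Groups did not overlap for 13 genes, beside 52.1% of all probe sets.

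The largest falls in Col-0 were in 3 CYP71B genes for which no role is given here. CYP71B23 stood at 9.17, 9.06 and 8.91 on the Col-0 arrays at 23 °C and at 7.79, 8.01 and 7.96 at 4 °C. Every cold array was thus well below every control array. This 2.19-fold fall (difference −1.13 ± 0.10, adjusted p = 5.38e-07) was the largest among the members in Col-0. CYP71B28 stood at 5.76, 6.12 and 5.64 at 23 °C and at 4.42, 4.88 and 4.90 at 4 °C. All cold values lay below the dim level, so that the size of its fall may be too small, which was not tested (difference −1.11 ± 0.14, adjusted p = 1.35e-05). CYP71B37 stood at 8.11, 8.16 and 7.96 at 23 °C and at 6.99, 6.82 and 7.37 at 4 °C. It was lower on each cold array than on any control array (difference −1.02 ± 0.14, adjusted p = 3.00e-05). These were the 3 members of 23 that changed at least 2-fold in Col-0, where 8.76% of all probe sets were called and did so.

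Smaller falls in Col-0 were found in 4 more genes. CYP71B26 went from 9.54 ± 0.15 to 8.86 ± 0.07 (difference −0.68 ± 0.12, adjusted p = 4.54e-04). CYP71B24, a dim gene throughout, stood at 4.35, 4.07 and 4.11 at 23 °C and at 3.45, 3.39 and 3.75 at 4 °C (difference −0.65 ± 0.11, adjusted p = 3.18e-04). It was the 1 dim gene called in the cold, where 8.14% of all dim probe sets were called. CYP71B29, next to CYP71B28 on chromosome 1, went from 8.46 ± 0.14 to 7.96 ± 0.16 (difference −0.50 ± 0.12, adjusted p = 0.00336). CYP84A4, an enzyme that acts on phenolic aldehydes in the synthesis of arabidopyrones, stood at 5.98, 6.07 and 6.38 at 23 °C and at 5.74, 5.80 and 5.80 at 4 °C. Its groups did not overlap, but the lowest control array and the highest cold array lay close together (difference −0.36 ± 0.12, adjusted p = 0.0204). CYP84A4 was no longer called when the arrays were quantile normalized again (adjusted p = 0.0598), or when Col-0 lost its replicate 3 at 23 °C (0.106) or its replicate 1 at 4 °C (0.0624).

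Rises in Col-0 were found in CYP71B22, CYP51G2 and CYP71B6. CYP71B22 stood at 5.16, 5.34 and 5.0 at 23 °C and at 6.32, 5.99 and 5.56 at 4 °C. It rose 1.73-fold with a wide spread between cold arrays (difference 0.79 ± 0.20, adjusted p = 0.00498). CYP51G2, annotated as a transcribed pseudogene and related to the sterol demethylase CYP51G1, stood at 5.51, 5.50 and 5.36 at 23 °C and at 6.02, 5.95 and 6.11 at 4 °C. Every cold array was above every control array (difference 0.57 ± 0.08, adjusted p = 6.60e-05). CYP71B6, which turns indole-3-acetonitrile into indole-3-carboxylic acid derivatives, went from 9.99 ± 0.06 at 23 °C to 10.27 ± 0.08 at 4 °C, and its lowest cold array, 10.17, was above its highest control. This small rise (difference 0.28 ± 0.10, adjusted p = 0.0324) kept its size but not its call in 4 fits with 1 array fewer, where the difference was 0.24 to 0.28. These were the fits in which Col-0 lost replicate 1 (adjusted p = 0.0665) or 2 (0.10) of the controls, or replicate 1 (0.0895) or 2 (0.101) of the cold arrays.

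**Figure D1:**
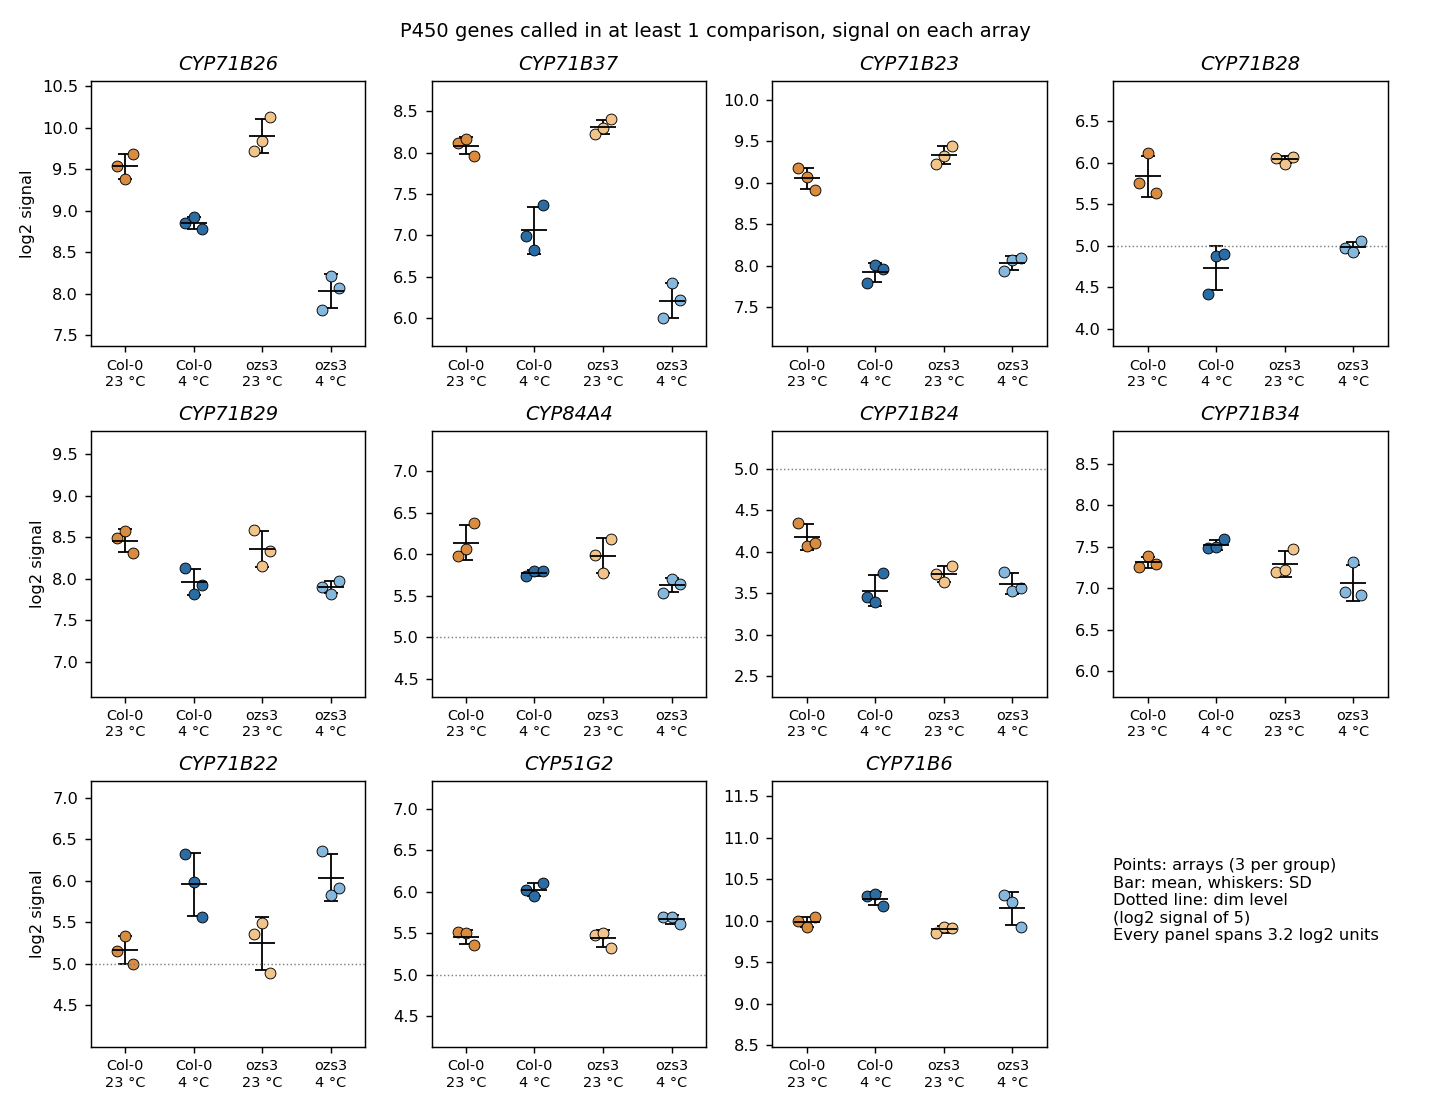
Signal (log2, vertical axis) of the 11 P450 genes called in at least 1 comparison, in the 4 groups; points are arrays, bars are means and whiskers are SDs of 3 arrays, and each panel spans the same number of log2 units. CYP71B26 and CYP71B37 fall further in ozs3 than in Col-0, CYP71B23, CYP71B28 and CYP71B29 fall by similar amounts in both, and CYP71B22, CYP51G2 and CYP71B6 are higher in the cold.

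The same comparison in ozs3 called 6 genes lower and 3 higher, where 26.2% and 24.9% of all probe sets were called (51.1% in all, against 39.1% of the P450 genes). The median difference of the 23 genes was 0.08, against 0.05 for all probe sets. When all arrays were given 1 common median, the median of all probe sets moved to 0.18 and the split became 5 lower and 9 higher. Of the 11 genes above the dim level 9 were called, beside 62.6% of such probe sets, and groups did not overlap for 11 of the 23 genes, beside 58.4% of all probe sets. The largest falls were again in CYP71B genes. CYP71B37 stood at 8.23, 8.29 and 8.40 at 23 °C and at 6.01, 6.42 and 6.22 at 4 °C. This was a 4.26-fold fall (difference −2.09 ± 0.14, adjusted p = 3.78e-08), the largest of any member in either genotype. CYP71B26 stood at 9.73, 9.84 and 10.13 at 23 °C and at 7.81, 8.22 and 8.07 at 4 °C. All 3 cold arrays were more than 1 log2 unit below the controls, a 3.65-fold fall (difference −1.87 ± 0.12, adjusted p = 4.83e-08).

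Falls close in size to those of Col-0 were seen in ozs3 for CYP71B23 and the chromosome 1 pair. CYP71B23 went from 9.33 ± 0.11 to 8.04 ± 0.08 (difference −1.30 ± 0.10, adjusted p = 1.17e-07). CYP71B28 went from 6.04 ± 0.05 to 4.98 ± 0.07, the cold mean again in the dim range (difference −1.06 ± 0.14, adjusted p = 1.69e-05). CYP71B29 went from 8.36 ± 0.22 to 7.90 ± 0.08 (difference −0.46 ± 0.12, adjusted p = 0.00522). Together with CYP71B37 and CYP71B26, CYP71B23 and CYP71B28 make 4 members that changed at least 2-fold, where 11.3% of all probe sets were called and did so. CYP84A4 fell by 0.36 ± 0.12 on the log2 scale (difference −0.36, adjusted p = 0.0201). It was lost with 1 common median (adjusted p = 0.117), with arrays quantile normalized again (0.101) and with array weights (0.0730). It was also lost when ozs3 lacked replicate 3 of the controls (0.0969) or replicate 1 of the cold arrays (0.0678).

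The same 3 genes as in Col-0 were called higher in ozs3. CYP71B22 stood at 5.36, 5.50 and 4.88 at 23 °C and at 6.36, 5.83 and 5.92 at 4 °C. Its rise of 0.79 ± 0.20 (adjusted p = 0.00459) equalled that in Col-0 to 2 decimals. CYP51G2 rose by 0.23 ± 0.08 (adjusted p = 0.0300). This rise was not called when ozs3 lacked replicate 3 of the controls (adjusted p = 0.123) or replicate 1 (0.0732) or 2 (0.0730) of the cold arrays. The same held for a variance prior that follows intensity (0.0755) and for a fit of the ozs3 arrays alone (0.0540), and with 1 common median the difference was 0.37. CYP71B6 rose by 0.26 ± 0.10 (adjusted p = 0.0415), but its highest control array, 9.93, met its lowest cold array, 9.93, to 2 decimals. It lost its call in 7 of the 12 fits that dropped 1 array. These dropped any of the 3 ozs3 controls (adjusted p = 0.114, 0.0718 and 0.0706), the first or second cold array of ozs3 (0.163 and 0.118), or replicate 1 of either Col-0 group (0.0527 at 23 °C, 0.0517 at 4 °C). A fit of the ozs3 arrays alone (0.0824), arrays quantile normalized again (0.102) and array weights (0.0522) had the same effect, and with 1 common median the difference was 0.39.

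In all, 9 genes were called in the cold in both genotypes, 3 higher and 6 lower, and none was called in opposite directions. Of all probe sets, 33.1% were called in the same direction in both genotypes and 0.677% in opposite ones, against 39.1% and none of the P450 genes. These are 9 of the 10 called in Col-0 and all 9 called in ozs3. The 2 comparisons share no arrays, but they were fitted in the same model with a shared estimate of the spread, so their calls are not independent.

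**Figure D2:**
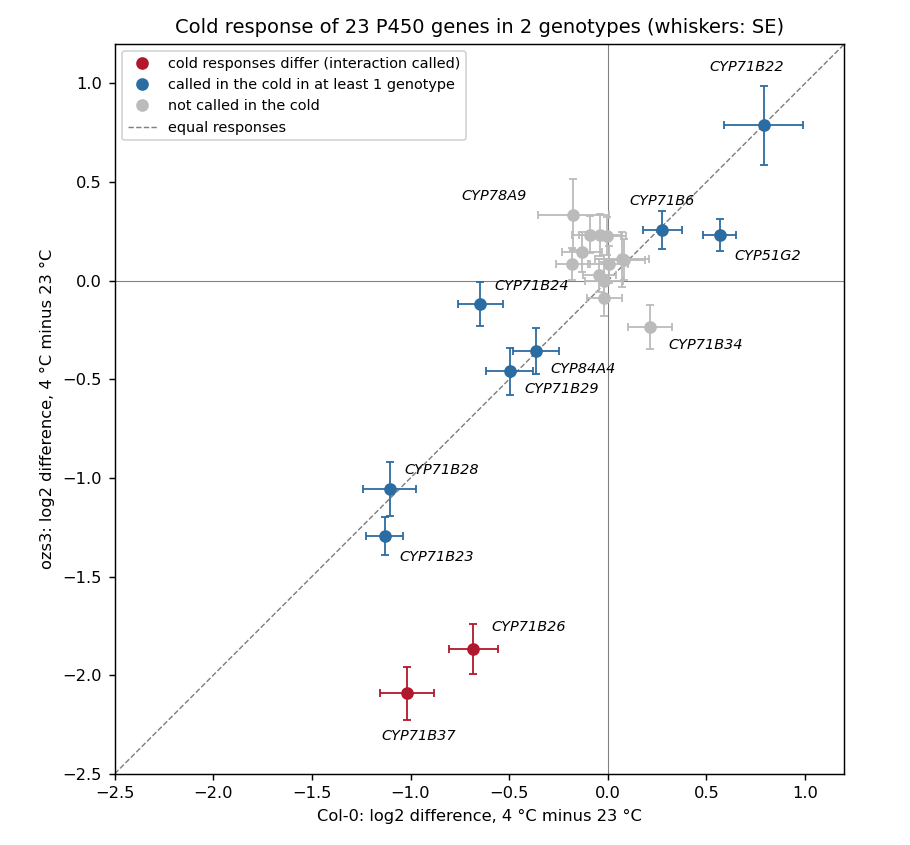
Cold response of the 23 P450 genes in Col-0 (horizontal axis) and ozs3 (vertical axis), both as log2 difference of 4 °C minus 23 °C with SE whiskers; the dashed line marks equal responses. CYP71B26 and CYP71B37 lie far below the line, CYP71B24 lies above it, and most genes that were not called crowd around 0.

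The next comparison asked whether the cold response differed between genotypes, tested as an interaction (the response of ozs3 minus that of Col-0). CYP71B26 and CYP71B37 fell further in ozs3, 2 of 23 genes, where 5.82% of all probe sets were called lower in this test. No member was called higher by limma (4.3% of all probe sets), while 3 were at an unadjusted p under 0.05. Both genes were above the dim level, where 13.2% of probe sets were called, and for both the responses differed at least 2-fold, where 1.8% of all probe sets were called and did so. For CYP71B26 the response was −0.68 in Col-0 and −1.87 in ozs3, a difference of −1.19 ± 0.18 (adjusted p = 0.00159). For CYP71B37 it was −1.02 and −2.09, a difference of −1.07 ± 0.19 (adjusted p = 0.00427). Both calls held in every alternative setting run, with differences between −1.28 and −1.07 for CYP71B26 and between −1.19 and −0.92 for CYP71B37.

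For the other called genes the interaction was near 0 or fell short of the threshold. It was −0.16 ± 0.14 for CYP71B23, 0.05 ± 0.19 for CYP71B28, 0.04 ± 0.17 for CYP71B29, 0.01 ± 0.16 for CYP84A4, −0.00 ± 0.28 for CYP71B22 and −0.02 ± 0.14 for CYP71B6. The 95% interval for CYP71B22, from −0.61 to 0.61, was the widest of these, so that a sizeable difference could have been missed there. For CYP51G2 it was −0.33 ± 0.12 (adjusted p = 0.0876), which was not called. CYP71B34 moved by 0.21 ± 0.11 in Col-0 (adjusted p = 0.143) and by −0.23 ± 0.11 in ozs3 (adjusted p = 0.0924). Neither was called, nor was their difference of −0.45 ± 0.16 (adjusted p = 0.0881), but without ozs3 replicate 2 at 4 °C the fall in ozs3 (−0.36, adjusted p = 0.0101) and the interaction (−0.57, adjusted p = 0.0224) both were.

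CYP71B24 was the 1 member with a positive interaction close to the threshold. In ozs3 it stood at 3.73 ± 0.10 at 23 °C and 3.61 ± 0.13 at 4 °C (difference −0.12 ± 0.11, adjusted p = 0.401). The interaction was 0.53 ± 0.16 (adjusted p = 0.0531). It was called with array weights (adjusted p = 0.0168), 1 common median (0.0341), a variance prior that follows intensity (0.0349) or the replicate number as a block (0.0260), and when Col-0 lacked replicate 3 of the cold arrays (0.0250). All 4 group means of this gene lay in the dim range.

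CYP78A9, a gene that promotes growth of fruits and seeds, varied most between the cold arrays of ozs3, at 6.13, 5.47 and 6.25, and no difference was called. When ozs3 lacked replicate 2 of the cold arrays, it was called higher in the cold in ozs3 (0.57, adjusted p = 0.00526), higher in ozs3 than in Col-0 at 4 °C (0.57, adjusted p = 0.0229) and in the interaction (0.75, adjusted p = 0.0326). The first of these was also called with 1 common median (adjusted p = 0.0406) and when ozs3 lacked replicate 1 of the controls (0.0489).

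The comparison of ozs3 with Col-0 at 23 °C asked what the mutation changed without cold. Here 1 of 23 P450 genes was called, CYP71B24, where 3.17% of all probe sets were called lower and 3.17% higher, 6.34% in all. No member was called higher by limma, and 2 were at an unadjusted p under 0.05. None was called and changed at least 2-fold, as 0.805% of all probe sets were. It stood at 4.35, 4.07 and 4.11 in Col-0 and at 3.73, 3.63 and 3.83 in ozs3, so that the groups did not overlap (difference −0.44 ± 0.11, adjusted p = 0.0334). Of all dim probe sets 1.49% were called here. The call for CYP71B24 was lost when Col-0 lacked replicate 1 (adjusted p = 0.120) or 3 (0.0595), and when ozs3 lacked replicate 1 (0.102) or 2 (0.130).

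None of the 11 genes above the dim level was called at 23 °C, where 8.25% of such probe sets were. All 3 ozs3 arrays were above all 3 Col-0 arrays for CYP71B26 (0.36 ± 0.12, adjusted p = 0.111), CYP71B23 (0.28 ± 0.10, adjusted p = 0.110) and CYP71B37 (0.23 ± 0.14, adjusted p = 0.388). Groups did not overlap for 5 of the 23 genes, beside 26% of all probe sets.

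At 4 °C, 4 of 23 P450 genes were called lower in ozs3 than in Col-0 and none higher, where 8.2% of all probe sets were called lower and 6.42% higher, 14.6% in all. At an unadjusted p under 0.05, 2 members were higher in ozs3 by limma. All 4 genes were above the dim level, where 19.1% of probe sets were called. None changed at least 2-fold, as 0.791% of all probe sets were called and did, and groups did not overlap for 7 of the 23 genes, beside 30.8% of all probe sets. CYP71B37 stood at 6.99, 6.82 and 7.37 in Col-0 and at 6.01, 6.42 and 6.22 in ozs3 (difference −0.85 ± 0.14, adjusted p = 0.00112). CYP71B26 stood at 8.86, 8.93 and 8.78 in Col-0 and at 7.81, 8.22 and 8.07 in ozs3 (difference −0.82 ± 0.12, adjusted p = 8.05e-04). For both, the highest ozs3 array was below the lowest Col-0 array, as it was for the next 2 genes.

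CYP71B34 stood at 7.49, 7.49 and 7.59 in Col-0 and at 6.95, 7.31 and 6.92 in ozs3 (difference −0.46 ± 0.11, adjusted p = 0.0127). Dropping replicate 3 of the ozs3 cold arrays ended this call (adjusted p = 0.0585). CYP51G2 stood at 6.02, 5.95 and 6.11 in Col-0 and at 5.70, 5.70 and 5.61 in ozs3 (difference −0.36 ± 0.08, adjusted p = 0.0107). The comparisons at 4 °C use the same cold arrays as the cold responses above, so that they restate the same measurements against another reference. Of the root hair genes measured beside them, XTH26, a wall enzyme gene, was also lower in ozs3 at 4 °C (−1.28 ± 0.26, adjusted p = 0.00520), while EXPA7 (0.55 ± 0.18) and EXPA18 (−0.04 ± 0.16) were not called. Of the 6 green tissue genes 1 was lower there, CHLM of chlorophyll synthesis (−0.34 ± 0.10, adjusted p = 0.0351). CHLM also fell further in the cold in ozs3 than in Col-0 (interaction −0.49 ± 0.14, adjusted p = 0.0428), in the same direction as CYP71B26 and CYP71B37. The interaction was not called for the other green tissue genes. It was positive for RCA (0.53 ± 0.24), LHCB4.1 (0.27 ± 0.26) and PRK (0.17 ± 0.25), and negative for LHCB4.2 (−0.30 ± 0.44) and SBPASE (−0.08 ± 0.12). The first CHLM call was lost in 4 of the 12 fits that dropped 1 array (adjusted p between 0.0763 and 0.146), in a fit of the 4 °C arrays alone (0.0791) and with arrays quantile normalized again (0.0589), and the interaction in 9 of those 12 (between 0.0533 and 0.107) and with 1 common median (0.0575). The interaction of XTH26 was −1.03 ± 0.37 and was not called (adjusted p = 0.0960). It was called with the replicate number as a block (−1.03, adjusted p = 0.00464) and when Col-0 lacked replicate 2 of the cold arrays (−1.27, adjusted p = 0.0436). EXPA7 (0.54 ± 0.25) and EXPA18 (0.27 ± 0.23) had interactions of the opposite sign, which were not called. The part of either tissue in these P450 differences was not tested.

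Most CYP71B genes lie next to each other, which the choice by name did not use. In the TAIR10.1 gene order, 11 of the 19 formed 1 run on chromosome 3, from CYP71B16 to CYP71B37, with at most 6 other genes between consecutive members. This stretch holds 24 genes, 18 of them P450 genes. A trio of CYP71B27, CYP71B28 and CYP71B29 lies on chromosome 1 and another trio, CYP71B5, CYP71B30P and CYP71B31, further along chromosome 3. CYP71B6 on chromosome 2 and CYP71B38 on chromosome 3 stood alone.

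Neighbours in the chromosome 3 run did not all move the same way. CYP71B22 and CYP71B23 are adjacent, and in the cold the first rose and the second fell in both genotypes. CYP71B34 to CYP71B37 are 4 adjacent genes, of which only CYP71B37 was called in the cold, in both genotypes. CYP71B35 moved by 0.07 ± 0.14 in Col-0 and 0.11 ± 0.14 in ozs3, and CYP71B36 by −0.02 ± 0.10 and −0.00 ± 0.10, both at dim signals. The 3 CYP71B genes lower in ozs3 at 4 °C, CYP71B26, CYP71B34 and CYP71B37, all lie at the far end of this run, with CYP71B35 and CYP71B36 between them (−0.01 ± 0.14 and −0.03 ± 0.10). On chromosome 1, CYP71B28 and CYP71B29 fell in both genotypes, while their dim neighbour CYP71B27 moved by −0.13 ± 0.10 and 0.14 ± 0.10. In the other trio nothing was called, but CYP71B30P, at dim signals, lay close to the threshold in the cold in ozs3 (0.23 ± 0.09, adjusted p = 0.0526). It was called higher with a variance prior that follows intensity (0.0329), 1 common median (0.00433) or array weights (0.0432), and when ozs3 lacked replicate 2 of the cold arrays (0.0189) or Col-0 replicate 2 of the controls (0.0477).

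**Figure D3:**
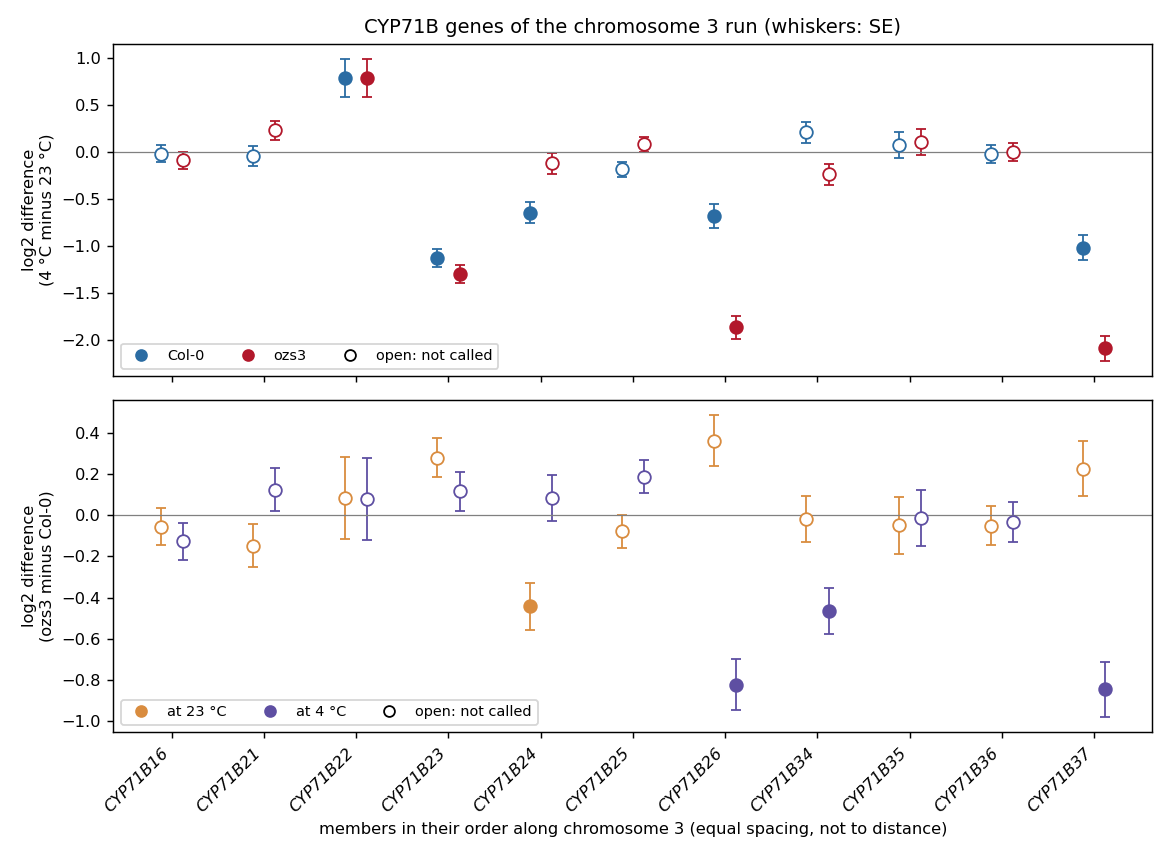
Log2 differences of the 11 CYP71B genes of the chromosome 3 run, in gene order along the horizontal axis, with SE whiskers; the upper panel gives the cold response in each genotype and the lower panel ozs3 minus Col-0 at each temperature, and filled points are called. The adjacent CYP71B22 and CYP71B23 go opposite ways in the cold, and CYP71B26, CYP71B34 and CYP71B37 are lower in ozs3 at 4 °C.

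Closely related copies can share probes. The members used here were those to which the probe table gives a probe set with no other gene named. That table names no gene for 8730 probe sets, so further P450 genes may have probe sets that the choice by name missed. All 23 were on probe sets of the plain type, designed for 1 transcript. A probe set shared by CYP71B19 and CYP71B20, which lie in the same run, was left out for naming 2 genes. It stood at 6.14 ± 0.11 and 6.05 ± 0.08 in Col-0 at 23 °C and 4 °C and at 6.03 ± 0.04 and 6.24 ± 0.13 in ozs3, and none of its differences was called. Another one, shared by CYP79C2 and AT1G58265, was dim, with means between 4.11 and 4.25, and was not called either.

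Of 24 lists of genes drawn up by role, 15 held P450 genes and 9 held genes of the same pathways outside the family. Of the P450 roles, 5 had 1 member here each, 1 of them CYP51G2, which matched the sterol list only through an older synonym and is annotated as a pseudogene, and 10 had none, among them those for brassinosteroids, abscisic acid, gibberellins, jasmonates and suberin. The electron donors of P450 enzymes had no named gene. The other lists named 17 genes, of which 6 rose and 3 fell in the cold in Col-0 and 7 rose and 2 fell in ozs3. At 23 °C, 1 was higher and 2 were lower in ozs3 than in Col-0, at 4 °C 4 were lower, and in the interaction 2 were higher and 2 lower. Of all probe sets, 43.9% were called in the cold in Col-0, 51.1% in ozs3, 6.34% between genotypes at 23 °C and 14.6% at 4 °C, and in the interaction 4.3% were higher and 5.82% lower. With so few genes in a list, nothing was read from its share.

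Genes of the glucosinolate pathway, to which CYP79A2 belongs, moved apart from each other in the cold. GTR1 and GTR2 are transporters that move glucosinolates between cells. GTR1 rose by 1.13 ± 0.12 in Col-0 (adjusted p = 3.46e-06) and 0.80 ± 0.12 in ozs3 (adjusted p = 6.79e-05), while GTR2 fell by 0.38 ± 0.08 and 0.68 ± 0.08. AOP3, an enzyme that modifies the side chain, rose by 0.40 ± 0.08 and 0.50 ± 0.08 at signals around the dim level.

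BCAT4, the aminotransferase that starts methionine chain elongation, stood at 12.96, 13.18 and 13.10 in Col-0 at 4 °C and at 12.28, 12.22 and 12.45 in ozs3. It fell in the cold in ozs3 (difference −0.80 ± 0.09) but was not called in Col-0 (0.07 ± 0.09), and the interaction of −0.87 ± 0.13 was called (adjusted p = 0.00191). In this list of 5 genes, 3 were lower in ozs3 at 4 °C, where 8.2% of all probe sets were. They were BCAT4 (−0.76 ± 0.09, adjusted p = 2.10e-04), GTR2 (−0.32 ± 0.08, adjusted p = 0.0136) and UGT74B1 (−0.44 ± 0.10, adjusted p = 0.00952). UGT74B1 was named after its values were seen. The call for GTR2 was lost when replicate 3 of either genotype was dropped at 4 °C (adjusted p = 0.0531 for Col-0 and 0.0530 for ozs3).

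In the phenylpropanoid and flavonoid pathway, near which CYP84A4 works, 3 of 5 named genes rose in the cold in ozs3, where 24.9% of all probe sets were called higher and 51.1% either way. In Col-0, where 43.9% were called, 2 rose and 1 fell. CHIL, a chalcone isomerase-like protein of flavonoid synthesis, rose by 2.45 ± 0.36 in Col-0 (adjusted p = 7.10e-05) and 1.70 ± 0.36 in ozs3 (adjusted p = 0.00124). CHIL is the direct neighbour of CYP79A2 on chromosome 5, a pair singled out after its values were seen, and CYP79A2 moved by −0.00 ± 0.10 and 0.23 ± 0.10 without a call (adjusted p = 0.0653 in ozs3). In ozs3 it was called higher with array weights (0.0368) or 1 common median (0.00718), and when the second cold array was dropped (0.0209). With the replicate number as a block CHIL was also called lower in ozs3 at 4 °C (−0.71, adjusted p = 0.00276) and in the interaction (−0.75, adjusted p = 0.0196). CCR2, a cinnamoyl-CoA reductase gene, rose by 0.79 ± 0.14 in Col-0 and 1.62 ± 0.14 in ozs3, and the interaction was called (0.83 ± 0.19, adjusted p = 0.0166). CCOAMT, a methyltransferase-like gene, fell in Col-0 (−0.91 ± 0.22) and rose in ozs3 (1.06 ± 0.22), and it was lower in ozs3 at 23 °C (−1.92 ± 0.22, adjusted p = 2.12e-04). CCR2 was also lower there (−0.54 ± 0.14, adjusted p = 0.0298), a call that was lost when Col-0 lacked replicate 2 (0.101) or 3 (0.0965) or ozs3 lacked replicate 1 (0.106) or 2 (0.112).

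The remaining pathway lists named 7 genes. Both genes of the coumarin list rose in the cold in both genotypes: AT3G13610 by 0.49 ± 0.09 and 0.64 ± 0.09, and BGLU42, a beta-glucosidase gene, by 1.26 ± 0.12 and 0.68 ± 0.12. BGLU42 was also higher in ozs3 at 23 °C (0.51 ± 0.12, adjusted p = 0.0227) and rose less there (interaction −0.59 ± 0.17, adjusted p = 0.0439). The first of these calls was lost in 4 of the 12 fits that dropped 1 array (adjusted p up to 0.108) and with only the 23 °C arrays fitted. The second was lost in 9 of them (up to 0.109), with 1 common median (0.0560) and with arrays quantile normalized again (0.0509). Of the abscisic acid list, UGT71C5 fell in Col-0 (−0.25 ± 0.08, adjusted p = 0.0209) and UGT71B6 was not called. Of the jasmonate list, OPCL1 was lower in ozs3 at 4 °C (−0.42 ± 0.11, adjusted p = 0.0243) and JMT was not called, nor was LUP5 of the triterpene list. With the replicate number as a block, OPCL1 was also called higher in the cold in Col-0 (0.26, adjusted p = 0.0459). The call for UGT71C5 was lost in 3 fits that dropped 1 array and with 1 common median (adjusted p between 0.0528 and 0.0857), and that for OPCL1 in 4 fits that dropped 1 array (between 0.0545 and 0.103).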

How the data were processed

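Per the labels' protocols, biotin-labelled cRNA from 100 ng of root RNA was hybridised to 12 ATH1 arrays. RMA, named in the submitters' processing notes without a version, had turned the scans into the deposited log2 values, 1 for each probe set on each array; RMA subtracts background, normalizes arrays to each other and summarises the probes of a set. That the deposited values are log2 was read from the values, which ran from 2.91 to 15.0. No arrays were alike: at most 0.0352% of values were equal in any pair.

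After 64 control probe sets were dropped from 22810, 22746 were tested. The probe table names 1 gene for 13513 probe sets, several for 503 and none for 8730, and a gene was represented by its brightest single-gene probe set. All 23 members matched a locus of the TAIR10.1 table, used only for names and gene order; a run was broken by more than 10 genes. limma 3.58.1 in R 4.3.3 fitted 1 mean per group to all probe sets (lmFit, contrasts, eBayes; 8 residual and 5.42 prior degrees of freedom), with 5 contrasts adjusted separately. The number of arrays limits the precision. In simulated arrays 200 probe sets were changed, modelled on cold against control in Col-0. Of these, 95 of 100 changes of 1 log2 unit and 99 of 100 of 2 units were recovered, with 15 false calls among the unchanged probe sets. The simulated noise was independent between arrays, and far fewer probe sets changed than the 43.9% called in Col-0. These rates therefore need not hold for the real arrays.

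The members and lists were chosen with earlier results of these data known. Values are given for the up to 8 largest called rises and falls per contrast without overlap between groups, for members with a listed role, for up to 3 members per family of 3 or more, and for up to 4 genes of a pathway list; the others are given by ranges, and those singled out after their values were seen are so marked or lie next to such a gene. Equal replicate numbers were checked by correlating deviations from group means across probe sets. Every pair exceeded 0.1 for the cold response in Col-0 (0.195 to 0.273) and for the genotypes at 23 °C (0.294 to 0.473) and 4 °C (0.198 to 0.353). For the cold response in ozs3, 1 pair did not (0.0809 to 0.320). A pairing is thus seen in the first 3 comparisons, from the data and not the labels. The reported model does not use it, and it enters only in the setting with the replicate number as a block.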

Additional observations from a re-analysis of the deposited data

Results flagged for a closer look

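The cold response differed between genotypes for 2 of 23 P450 genes by the test of the difference itself. Of all probe sets, 5.82% were called lower and 4.3% higher in this test. CYP71B26 fell in both genotypes and further in ozs3, with a difference between the responses of −1.19 ± 0.18 (limma, adjusted p = 0.00159). CYP71B37, in the same run on chromosome 3, did likewise, with a difference of −1.07 ± 0.19 (limma, adjusted p = 0.00427).
Among the 17 named pathway genes outside the family, the same test found differing cold responses for 4. These were BCAT4 (−0.87 ± 0.13), CCOAMT (1.97 ± 0.31), CCR2 (0.83 ± 0.19) and BGLU42 (−0.59 ± 0.17), each as the log2 response of ozs3 minus that of Col-0. The green tissue gene CHLM, looked at after its values were seen, also differed (−0.49 ± 0.14). The calls for BGLU42 (limma, adjusted p = 0.0439) and CHLM (limma, adjusted p = 0.0428) were lost in most fits that dropped 1 array and with 1 common median. CCOAMT, CCR2 and BGLU42 were called between genotypes at 23 °C but not at 4 °C (0.06 ± 0.22, 0.28 ± 0.14 and −0.08 ± 0.12). BCAT4 was called between genotypes at 4 °C (−0.76 ± 0.09) but not at 23 °C (0.10 ± 0.09).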

How the results depend on the processing

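The counts of called P450 genes were recomputed in 8 other settings and in 12 fits that left out 1 array each. No called difference of a member changed sign, and 19 of 26 calls held in every setting in which they were tested; 12 values not called were called in at least 1. In the cold in ozs3, genes called higher went from 3 to 1 with only the arrays compared and to 9 with 1 common median, which raised the median of all probe sets by construction. At 4 °C, 1 gene, CYP71B25, was called higher in ozs3 with 1 common median. In the interaction, 1 gene, CYP71B24, was called higher with the replicate number as a block, an intensity trend, 1 common median or array weights. Without dim probe sets, 0 genes were called lower in ozs3 at 23 °C, since CYP71B24 was then not tested. The block changed no other call of a member. Leaving out arrays gave between 1 and 4 genes called higher and between 5 and 7 lower in the cold in ozs3, and between 2 and 3 higher and between 6 and 7 lower in Col-0. For ozs3 against Col-0 it gave between 0 and 1 lower at 23 °C, and at 4 °C between 0 and 1 higher and between 3 and 4 lower. For the interaction it gave between 0 and 1 higher and between 2 and 3 lower. Averaging the probe sets of a gene left every member's value as it was, each having 1 probe set. The settings for genes outside the family were chosen after seeing the data. Signal over background was low for the 12 dim members, and what this did to their calls was not tested. A fit of only the arrays compared equals the reported one for the interaction and was not run there.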
